A study of Mus musculus with 2 samples.

Results

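The chromatin of 9 genes of myelin and of mature oligodendrocytes was examined in the left cerebral cortex of aged mice. The genes are Mbp, Mog, Mag, Mobp, Cnp, Cldn11, Myrf, Sox10 and Opalin. They are a named list of markers of myelinating cells, drawn up with earlier results of these data known, and all 9 were found among 21884 protein-coding genes with a unique symbol in the GENCODE M21 annotation. DNase-seq was carried out on 2 libraries, replicate 1 and replicate 2, of male B6CASTF1/J mice aged 18 to 20 months. B6CASTF1/J is an F1 hybrid of a C57BL/6 strain and the wild-derived strain CAST. Both libraries belong to 1 group, so that no treatment, age or genotype could be compared and no test was made. The labels give each library its own tissue sample but the same donor entry, so the spread between the libraries may be technical.

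DNase I cuts DNA where it is not covered by nucleosomes, and a peak is a stretch where such cuts pile up. The authors called 73221 peaks in replicate 1 and 111105 in replicate 2 in the shorter of the lists they deposited for each library, and 120015 and 178564 in the longer lists. Each peak carries a signal, which is the authors' own value. Its scaling is not stated, so it is used here to describe and rank peaks. Footprints, short protected stretches within open chromatin, numbered 264450 and 385637. Read totals were not used, so these numbers of calls are the sole guide to depth, and no interval for counting error can be stated. The tissue is a mixture of cell types: fewer oligodendrocytes and less open chromatin per oligodendrocyte cannot be told apart.

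Oligodendrocytes wrap axons in myelin, a stack of compacted membrane that speeds conduction. Mbp encodes myelin basic protein, which holds the cytoplasmic faces of that membrane together, and Mobp another basic protein of the same compartment. Mog and Mag encode immunoglobulin-like proteins, Mog of the outermost myelin surface and Mag of the membrane facing the axon. Cnp encodes a phosphodiesterase that keeps cytoplasmic channels in myelin open, Cldn11 the claudin of its tight junctions, and Opalin a transmembrane protein of oligodendrocytes. Sox10 and Myrf encode transcription factors: SOX10 acts throughout the oligodendrocyte lineage, and MYRF is needed for the expression of myelin genes and for their upkeep in the adult.

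The starts of these genes were open in most cases, but only weakly. A promoter peak, one within 1 kb of an annotated transcription start site (TSS), was found in 7 of the 9 genes in replicate 1 and in the same 7 in replicate 2, beside 60.7% and 61.2% of all protein-coding genes. Sox10 and Opalin had none. The median signal of the 7 promoter peaks was 0.937 in replicate 1 and 0.574 in replicate 2, against 3.82 and 2.88 over all genes with a promoter peak. All 7 lay in the lower part of that distribution, between percentiles 2.34 and 37.2 in replicate 1 and between percentiles 1.29 and 17.5 in replicate 2. In the longer lists 8 and 7 of the genes had a promoter peak, beside 65.0% and 66.0% of all genes, and the added one was Sox10 in replicate 1. When replicate 2 was cut to its 73221 strongest peaks, the number in replicate 1, only Mbp, Cnp and Myrf kept a promoter peak there, 3 of 9 beside 57.1% of all genes.

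Among Mbp, Mog, Mobp and Mag, Mbp had the strongest promoter peak in replicate 1, with a signal of 2.13 at its upstream start. Its strongest in replicate 2, 0.961, was at a start far downstream, and the upstream start had 0.934 there, a log2 ratio of 1.19. The Mog promoter peak, at chr17:37023253-37023401 (mm10, over the first exon), had 0.739 in replicate 1 and 0.574 in replicate 2. The Mobp start had 0.653 in replicate 1 and 0.480 in replicate 2. In the shorter lists the peaks there did not overlap: chr9:120149722-120149826 in replicate 1 and chr9:120149680-120149700, a stretch of 21 bp, in replicate 2. In the longer lists the peaks, with the same signals, were wider and overlapped over chr9:120149681-120149844. Mag was the weakest in both libraries, with 0.627 and 0.387 for a peak at chr7:30914907-30915033, just upstream of the GENCODE start.

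For the genes of cytoplasmic channels and of tight junctions, Cldn11 had 0.937 in replicate 1 and 0.467 in replicate 2. Cnp was the only gene with several peaks at 1 start. The locus over its first exon, chr11:100574801-100575440, had 1.39 in replicate 1 and 1.15 in replicate 2 (log2 ratio, replicate 1 over replicate 2, 0.27). The locus in an intron, chr11:100575518-100575778, had 1.45 and 0.847 (log2 ratio 0.78), so a different one was the stronger in each library. Of the transcription factor genes, Myrf had the strongest promoter peak of all 9 in replicate 1, 2.88, against 0.928 in replicate 2, the widest gap between libraries (log2 1.64). Sox10 was listed in 1 of the 4 peak lists, with 0.541 at chr15:79164399-79164530, and Opalin in none.

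**Figure D1:**
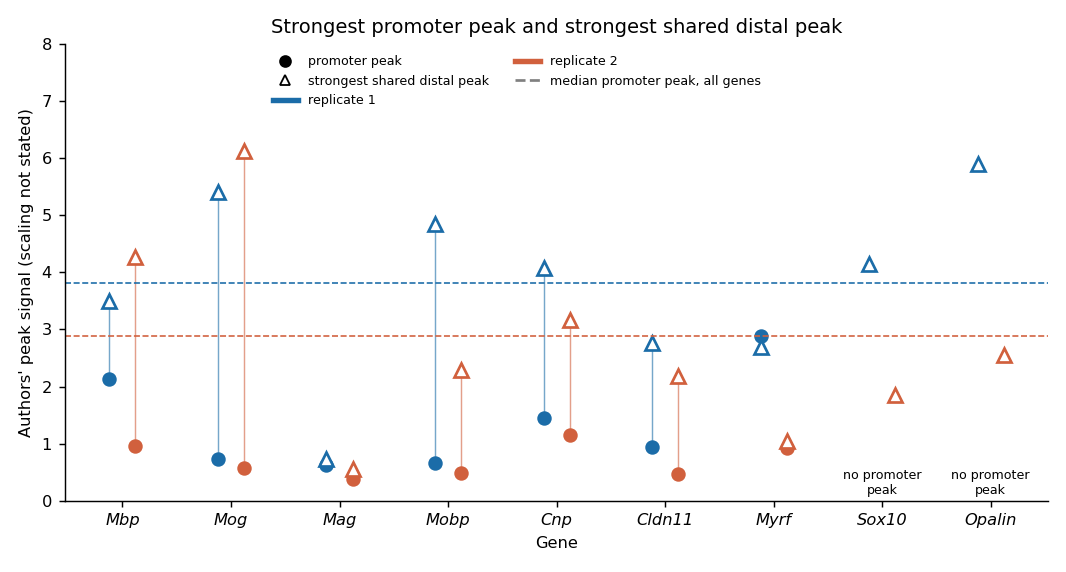
The authors' peak signal (vertical axis, scaling not stated) of the strongest promoter peak (filled circles) and of the strongest distal peak found in both libraries (open triangles) is plotted for each of the 9 genes, replicate 1 in blue and replicate 2 in orange; dashed lines mark the median promoter peak over all genes with one, 3.82 and 2.88. All promoter peaks lie below the dashed line of their library, and the distal peaks lie above the promoter peaks except for Myrf in replicate 1.

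The observed over expected CpG ratio was taken within 500 bp of each TSS, and a gene with several starts was given its highest ratio. That start need not be the one with the peak. Ranked in deciles over all genes, Mog was in decile 2, Mag and Opalin in decile 3, and Mobp and Sox10 in decile 4. Cnp and Cldn11 were in decile 5, Mbp in decile 6 and Myrf in decile 7. A promoter peak is rare at the CpG-poor end: 5.58% and 8.59% of the genes of decile 2 had one in replicate 1 and replicate 2, and 42.5% and 45.3% of those of decile 4. The lack of a peak at Opalin and Sox10 is therefore the commoner state for starts of their CpG content, and the presence of one at Mog, Mag and Mobp the less common. The level was low even so. All 7 promoter peaks in each library were below the median of the promoter peaks in their own decile: Mog had 0.739 against 1.37 in replicate 1, Cldn11 0.937 against 2.66, and Mbp 2.13 against 3.79.

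SOX10 and MYRF bind DNA themselves, so the sequences before the starts were searched for short forms of their motifs, ACAAAG or ACAATG for SOX and CTGGNAC for MYRF, on both strands. The RefSeq promoter table (GRCm38.p6) held 6 of the 9 genes, those other than Mbp, Myrf and Sox10. Of these 6, Mobp, Mag, Cnp and Opalin held a SOX match within the 250 bases before a start, beside 25.2% of the 32851 promoters in the table, and Mag, Cnp and Mog held a MYRF match, beside 16.1%. Mobp stood out in number. It held 6 SOX matches, and no other promoter of the table held that many, while 0.0213% held at least 5 (this count was made after the matches were seen). The stretch before its first annotated exon and the 250 bases before the most upstream RefSeq start of Mag are printed from RefSeq, 5′ to 3′ along the gene, with SOX and MYRF matches in capitals. The Mobp stretch of 215 bases is chr9:120149492-120149706 (plus strand) and that of Mag is chr7:30914923-30915172 (minus strand).
Mobp: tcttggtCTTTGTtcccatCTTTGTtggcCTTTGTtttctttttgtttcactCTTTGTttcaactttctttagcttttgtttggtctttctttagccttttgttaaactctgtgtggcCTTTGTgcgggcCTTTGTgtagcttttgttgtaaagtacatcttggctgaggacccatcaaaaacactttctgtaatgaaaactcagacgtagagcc
Mag: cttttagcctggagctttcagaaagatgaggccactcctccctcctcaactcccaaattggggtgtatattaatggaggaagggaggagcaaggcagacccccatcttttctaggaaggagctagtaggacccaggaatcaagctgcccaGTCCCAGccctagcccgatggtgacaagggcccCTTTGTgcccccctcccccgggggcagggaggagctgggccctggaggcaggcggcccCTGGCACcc
All Mobp matches read CTTTGT, the SOX form on the other strand, spaced through a T-rich stretch with a GC content of 39.1%. The shorter list's Mobp peaks, 105 bp and 21 bp wide, lie at the end of that stretch or past it, beyond the matches. In the longer list the peak of replicate 2, chr9:120149399-120149844, covers the whole stretch and all its matches. The longer list's peak of replicate 1, chr9:120149681-120149860, starts past the matches. In Mag the peak of replicate 1 covers the single SOX match and both MYRF matches. The SOX match lies in a footprint of replicate 1 but not of replicate 2, and the MYRF matches in none. A match shows that the letters are present and not that a factor binds there.

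Accessibility below the peak threshold was read from the q-values (false discovery rates) per base that the authors deposited. Bases were counted within 1 kb of each start, and for a gene with several starts the start with most was taken. By this count 9 of the 9 genes in replicate 1 and 8 in replicate 2 had a base at q of 0.05 or below, beside 65.8% and 67.1% of all genes. At q of 0.001 or below these were 7 and 7, beside 61.2% and 62.1% of all genes, and the missing genes were Sox10 and Opalin. The Opalin start had 28 listed bases in replicate 1 and 15 in replicate 2, with a lowest q of 0.0270 and 0.0455. At the Sox10 start 132 bases were listed in replicate 1, with a lowest q of 0.0178, and none in replicate 2. So neither start reached the stricter level in either library, and Opalin, which is in no peak list, had bases at the looser level in both. Cnp had the widest open start of the 9, with 947 and 909 bases at the stricter level against medians of 364 and 417 over all genes, although its signal was low. Mbp had 359 and 357 at that level, all at its upstream start, with a further 201 and 89 at the downstream start, and the other 5 genes with a promoter peak had between 105 and 300 in replicate 1 and between 43 and 164 in replicate 2.

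**Figure D2:**
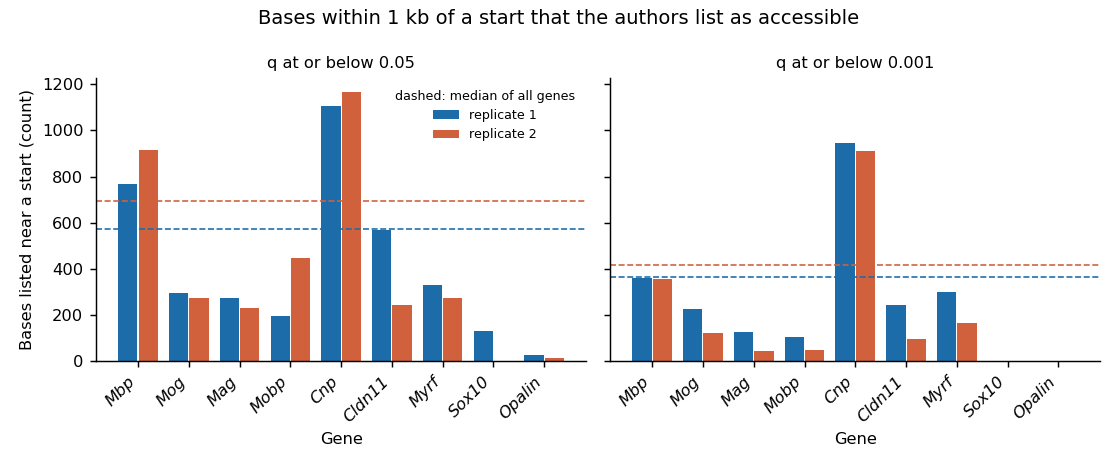
Bars give, for each of the 9 genes, the number of bases within 1 kb of the start with most such bases that the authors list at q of 0.05 or below (left) and 0.001 or below (right), replicate 1 in blue and replicate 2 in orange; dashed lines are the medians over all 21884 genes (574 and 695.5 on the left, 364 and 417 on the right). Cnp exceeds the dashed lines in both panels, and Sox10 and Opalin have no bar on the right.

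Away from the starts, peaks were dense for the window length in most of these genes. Mag, Sox10 and Opalin had only 1 or 2 such peaks in each library. A distal peak lay over 1 kb from every annotated TSS of any gene, and was counted within the gene body and 10 kb on each side. All 9 genes had at least 1 in each library, beside 58.3% of all genes in replicate 1 and 67.4% in replicate 2. Per 100 kb of window the median of the 9 genes was 7.62 in replicate 1 and 6.59 in replicate 2, against 1.73 and 3.18 over all genes. Mobp had the densest window in replicate 1, at 11.6, and 13.5 in replicate 2, and Mbp had 9.20 and 13.8. Mag had the sparsest, 2.80 in both libraries. Among the other lists the medians were 2.70 and 5.18 for 25 further oligodendrocyte genes, 5.30 and 5.55 for 8 neuronal genes and 3.99 and 7.44 for 8 microglial genes, so in replicate 2 the microglial list was above the 9 genes. The strongest distal peak of each of the 9 genes had a median signal of 4.15 in replicate 1 and 2.29 in replicate 2. Over all genes with a distal peak these medians were 2.08 and 1.53. Precursor genes had 3.76 and 2.15. Neuronal genes had 4.10 and 2.78, so in replicate 2 they were above the 9 genes.

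In most of these genes the strongest distal peak exceeded the promoter. Of the 7 genes with both kinds, this was so in 6 in replicate 1 and in all 7 in replicate 2, beside 32.7% and 31.7% of all genes with both. The exception was Myrf in replicate 1, with a distal signal of 2.69 beside 2.88 at its promoter. In replicate 2 Myrf had 1.05 beside 0.928, at a distal peak whose nearest start is that of Tmem258. The median ratio of distal to promoter signal was 2.81 in replicate 1 and 4.44 in replicate 2, against 0.631 and 0.597 over all genes with both. Over all genes the share was higher at CpG-poor starts, 63.1% and 61.4% in decile 3, than at CpG-rich ones, 29.6% and 28.4% in decile 7. This comparison was chosen after the values were seen. Among the further oligodendrocyte genes with both kinds it was so in 6 of 11 in replicate 1 and 10 of 15 in replicate 2. Other lists were small and differed: 5 of 7 and 4 of 7 neuronal genes, 2 of 3 and 3 of 4 astrocyte genes, 2 of 2 and 2 of 3 microglial genes, 2 of 4 and 1 of 2 endothelial genes, 1 of 3 and 1 of 3 precursor genes and 1 of 4 and 1 of 4 Schwann cell genes.

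The strongest distal peak found in both libraries lay at a different place in each gene. For Mog it was the strongest of the 9 by the mean of both libraries, at chr17:37028641-37028860, with its nearer edge 5243 bp upstream of the start, in intergenic sequence. Its signal was 5.40 in replicate 1 and 6.13 in replicate 2, at percentiles 98.2 and 99.8 among all distal peaks. For Mobp it was chr9:120140741-120140940, 8767 bp upstream and intergenic, with 4.84 and 2.29. For Cldn11 it was chr3:31146041-31146240, 3680 bp upstream and intergenic, with 2.76 and 2.18. For Cnp it was chr11:100570521-100570740, 4164 bp upstream within an intron of Ttc25, with 4.08 and 3.16.

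Intronic peaks were the strongest in the others. Opalin, whose start had no peak, had 5.89 in replicate 1 and 2.56 in replicate 2 at chr19:41071641-41071820, in its own intron 5293 bp from the start. A second, of 4.05 and 2.69, lay 9668 bp upstream within an intron of Tll2. Sox10 had 4.15 and 1.86 at chr15:79148661-79148860, beyond its 3′ end in an intron of Polr2f, whose start is nearer than that of Sox10. Nothing else distal in the Sox10 window was found in both libraries. Myrf had 2.69 and 1.05 in its own intron at chr19:10219206-10219380, where the nearest start is that of Tmem258. Mag was the exception in level, with 0.732 and 0.554 at chr7:30904185-30904360, percentiles 23.9 and 26.6 among all distal peaks.

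**Figure D3:**
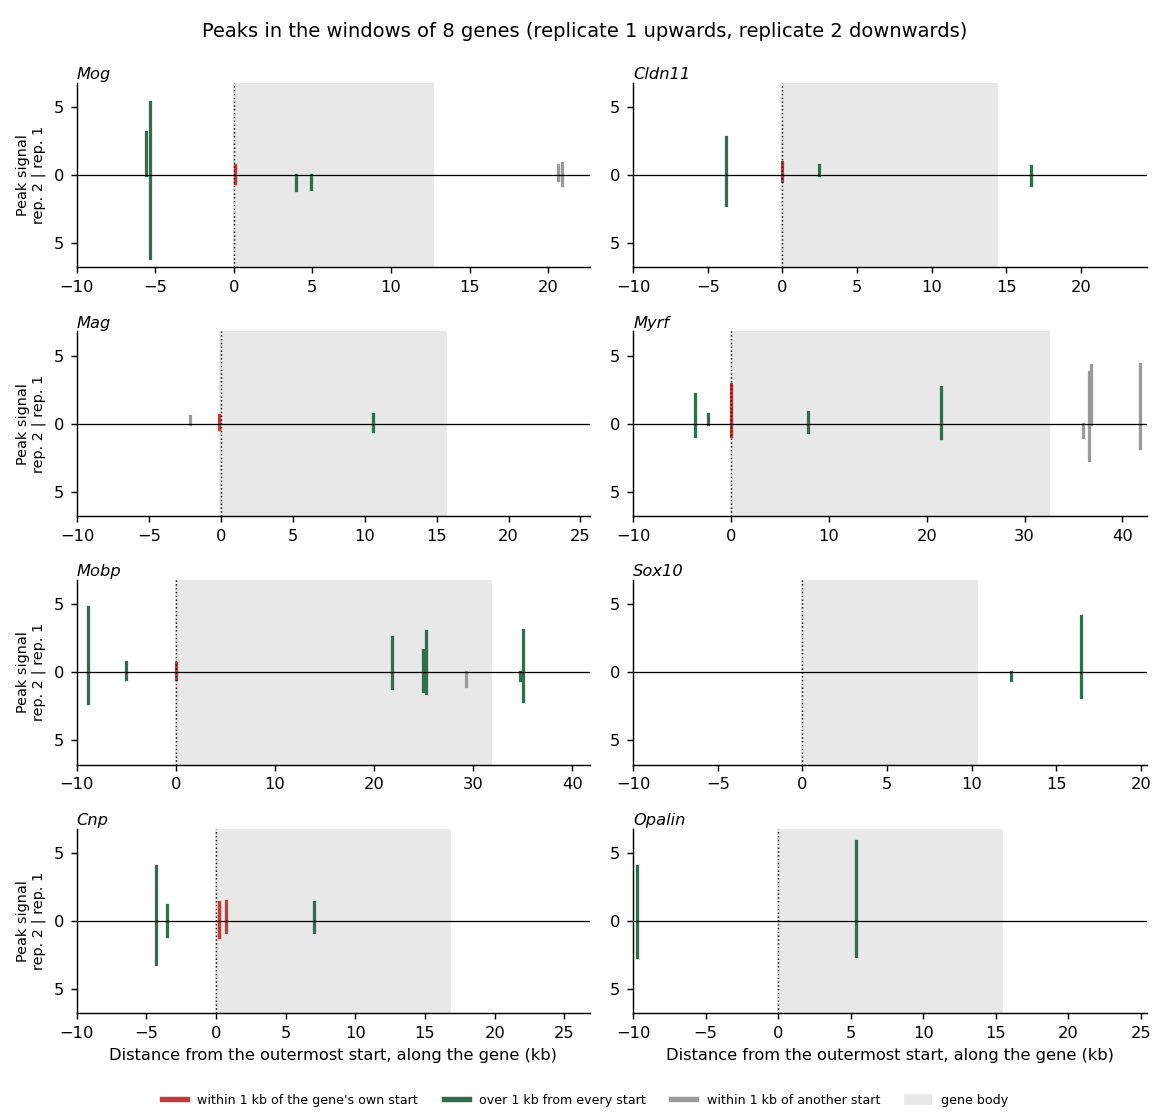
Each panel shows the window of 1 gene, with the distance from its outermost start along the gene in kb on the horizontal axis and the authors' peak signal on the vertical axis, replicate 1 upwards and replicate 2 downwards; each line is 1 peak of the shorter list and the grey area is the gene body. The tallest lines stand away from the start at Mog, Mobp, Cnp, Cldn11 and Opalin, and Sox10 has no line within its gene body.

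The sequences of 4 of these distal peaks are shown because they differ in what their footprints hold. They are read from GRCm38.p6 (the mm10 build), plus strand, over the bases common to both libraries, with capitals for bases that lie in footprints of both libraries. The stretches are chr17:37028641-37028840 for Mog, chr9:120140741-120140940 for Mobp, chr19:41071661-41071820 for Opalin and chr15:79148661-79148860 for Sox10.
Mog: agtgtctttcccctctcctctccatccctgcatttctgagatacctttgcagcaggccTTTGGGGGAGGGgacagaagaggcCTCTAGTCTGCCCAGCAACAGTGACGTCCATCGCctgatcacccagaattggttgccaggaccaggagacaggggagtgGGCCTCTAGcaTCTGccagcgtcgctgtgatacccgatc
Mobp: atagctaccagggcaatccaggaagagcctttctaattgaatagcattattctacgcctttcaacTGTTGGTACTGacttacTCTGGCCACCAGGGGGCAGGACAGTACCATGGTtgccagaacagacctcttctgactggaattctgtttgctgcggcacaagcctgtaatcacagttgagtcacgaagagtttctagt
Opalin: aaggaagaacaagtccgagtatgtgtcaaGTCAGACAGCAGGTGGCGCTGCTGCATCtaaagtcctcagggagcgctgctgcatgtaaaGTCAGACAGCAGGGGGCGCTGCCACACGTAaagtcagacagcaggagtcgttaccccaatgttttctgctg
Sox10: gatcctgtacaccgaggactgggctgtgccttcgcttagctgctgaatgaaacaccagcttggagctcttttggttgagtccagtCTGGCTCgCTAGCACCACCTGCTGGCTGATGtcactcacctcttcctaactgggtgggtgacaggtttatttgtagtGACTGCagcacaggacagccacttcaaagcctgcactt
The longer capital run of Mobp holds the consensus of CTCF, a zinc finger protein found at many of the same sites in most cell types, where it helps to set the borders of chromatin loops. Both capital runs of Opalin hold the CTCF consensus with 1 letter different, in near-identical copies, and the second run of Sox10 holds it in the same way on the other strand. Mog holds no such match, and of the motifs searched its capitals met an E-box, CAGATG on the other strand, at the last and shortest run.

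The full CTCF consensus matched in 7 of the 31 distal loci found in both libraries, in 5 of the genes. Its matches mostly lay in footprints, counted when the middle base of the match was in one, in these genes and elsewhere. In the distal peaks of the 9 genes this held for 6 of 7 matches in replicate 1 and 7 of 7 in replicate 2, beside 97.5% and 92.3% of CTCF matches in all distal peaks. SOX matches did so in 0 of 9 and 1 of 14 cases, beside 15.6% and 10.5%, and MYRF matches in 1 of 5 and 1 of 10, beside 28.9% and 20.6%. E-box matches did so in 7 of 18 and 9 of 19, beside 34.1% and 29.9%. Counts this small do not set the 9 genes apart from all distal peaks. As shares of distal peaks (200 bp around the middle), CTCF matched 7 of 34 in replicate 1 and 7 of 41 in replicate 2, 20.6% and 17.1%, beside 10.7% and 5.93% of all distal peaks. SOX matched 8 of 34 and 11 of 41, 23.5% and 26.8%, beside 21.5% and 23.4%, and MYRF 4 of 34 and 6 of 41, 11.8% and 14.6%, beside 17.3% and 15.3%. The SOX and MYRF shares were thus near those of all distal peaks. The E-box (CAGCTG or CAGATG) was in 17 of 34 and 18 of 41, beside 39.0% and 39.9% of all distal peaks. NFI (TTGGCA) matched 7 and 7, beside 17.4% and 18.6% of all distal peaks, AP-1 (TGANTCA) 4 and 5, beside 13.9% and 18.6%, and SP/KLF (CCGCCC) 3 and 3, beside 10.2% and 6.87%. The CRE (TGACGTCA) and YY1 (AAGATGGC) letters were in none, and they are rare in all distal peaks, at 0.548% and 0.420% for the CRE and 1.63% and 1.28% for YY1.

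With 1 letter of the CTCF consensus allowed to differ, a looser form added after the data were seen, 16 of the 31 shared distal loci held a match. In 13 of these a match lay in footprints of both libraries, and over all distal peaks 91.5% of such matches in replicate 1 and 84.2% in replicate 2 lay in a footprint of their library. The matching loci belonged to 7 genes, and Mog and Cnp had none. Of the strongest shared distal loci, 6 of 9 held the looser form, those of Mag, Mobp, Cldn11, Myrf, Sox10 and Opalin, and 3 of 9 held the full consensus, those of Mag, Mobp and Myrf. These loci were searched over their whole width, whereas the shares that follow are of single peaks, over 200 bp around the middle. In the distal peaks of the 9 genes the looser form was in 47.1% in replicate 1 and 36.6% in replicate 2. The shares were 29.2% and 17.0% over all distal peaks. Strong distal peaks often hold it, in 63.7% and 30.2% of those in the highest of 10 equal classes of signal. The strongest loci of Mbp, Mog and Cnp held neither form.

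Mbp had the largest set of loci. The gene spans 110492 bp at chr18:82475146-82585637 and has a pair of start regions. The upstream one, at 82475146, serves the Golli transcripts and the downstream one, at 82554470 to 82554580, the transcripts of classic myelin basic protein. The upstream start had a peak of 2.13 in replicate 1 and 0.934 in replicate 2, and the downstream start had 1.63 and 0.961. The peaks at both starts differed less between starts than between libraries, so no order of the starts can be given: the upstream one was higher in replicate 1 and the downstream one in replicate 2. Of 20 loci in the window, 14 were found in both libraries and 6 in replicate 2 alone, and 18 were distal. The strongest by mean was chr18:82536101-82536320, in an intron 18150 bp upstream of the downstream start, with 3.49 and 4.27. The strongest in replicate 1 was chr18:82568941-82569160, in an intron past the downstream start, with 4.46 in replicate 1 but 1.49 in replicate 2, and it holds the full CTCF consensus within footprints of both libraries. Another, over a coding exon at chr18:82575581-82575860, had 3.28 and 4.12.

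**Figure D4:**
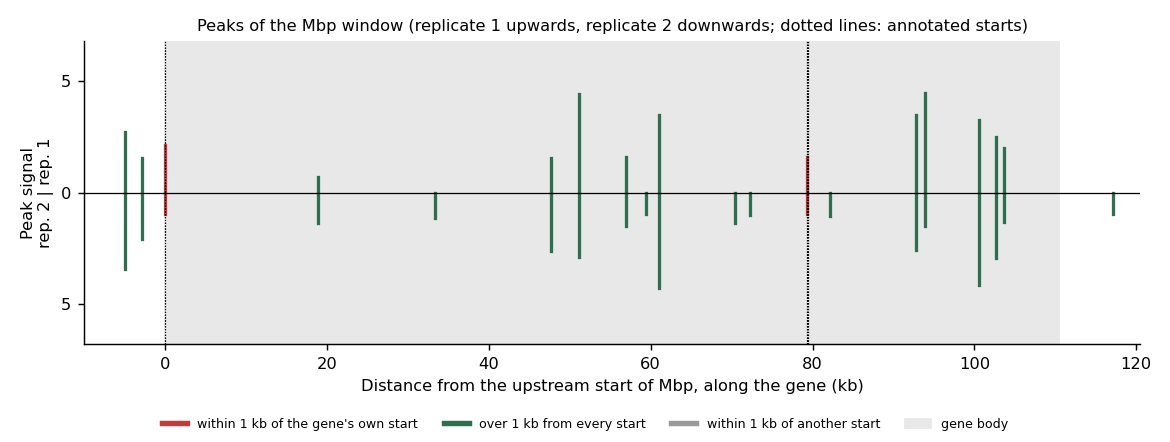
The Mbp window is drawn by distance from the upstream start in kb (horizontal axis) with the authors' peak signal on the vertical axis, replicate 1 upwards and replicate 2 downwards; each line is 1 peak, the dotted lines are annotated starts and the grey area is the gene body. Peaks at both starts (red) reach 2.13 and 1.63 in replicate 1, and the distal peaks (green) between and beyond them reach 4.46 in replicate 1 and 4.27 in replicate 2.

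Most peaks in these windows were found in both libraries. Of 50 peaks in replicate 1, 88.0% overlapped a peak of replicate 2, beside 85.8% of all peaks, and of 56 in replicate 2, 76.8% overlapped a peak of replicate 1, beside 56.1%. In the longer lists the shares were 77.5% in replicate 1, now below the 82.7% of all peaks, and 76.6% in replicate 2, beside 54.9%. Merged, they made 62 loci, of which 43 were in both libraries, 6 in replicate 1 alone and 13 in replicate 2 alone. Of the 31 shared distal loci 16 were intronic, 9 intergenic and 3 over coding exons. The windows held 199 footprints in replicate 1 and 177 in replicate 2, with medians of 4.64 and 3.48 per 10 kb, against 1.86 and 2.43 over all genes. The astrocyte list had medians of 3.18 and 4.03, so in replicate 2 it was above the 9 genes.

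The libraries differed in level at these loci, and not evenly. All 8 promoter loci found in both had the higher signal in replicate 1, with a median log2 ratio (replicate 1 over replicate 2) of 0.77 ± 0.44 (SD over loci). Over all promoter peaks shared 1-to-1, a single peak of each library, the median was 0.29, and 72.8% were higher in replicate 1. Of the shared distal loci 22 of 31 were higher in replicate 1, beside 49.8% of all distal peaks shared 1-to-1. The 16 with the looser CTCF form had a median of 0.83 and 15 of them were higher in replicate 1, and the 15 without it had a median of -0.18 and 7 were higher in replicate 1. The same held over all distal peaks shared 1-to-1. For the 12164 with the form the median was 0.64, and 81.6% were higher in replicate 1. For the 27900 without it these were -0.21 and 35.9%. The split was made after the data were seen, and what sets it was not tested. An order of these loci by signal therefore depends on the library: Opalin, at 5.89, had the strongest shared distal locus in replicate 1, whereas Mog, at 6.13, had it in replicate 2.

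**Figure D5:**
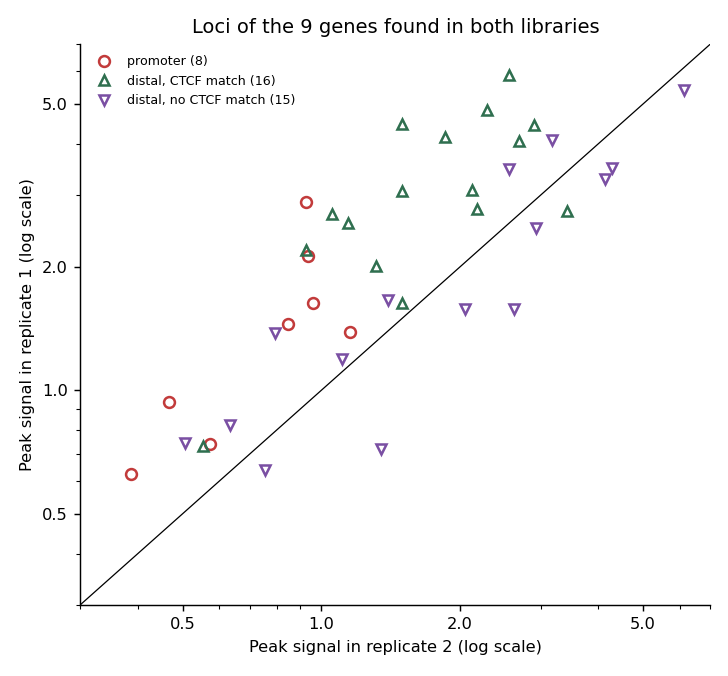
Each point is a locus of the 9 genes found in both libraries, with its peak signal in replicate 1 (vertical axis) against replicate 2 (horizontal axis), both on log scales; the line marks equal signal. The 8 promoter loci (circles) and 15 of the 16 distal loci with the looser CTCF form (upward triangles) lie above the line, and the 15 distal loci without it (downward triangles) lie on both sides.

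Of 25 further oligodendrocyte genes, 19 had a promoter peak in replicate 1 and 18 in replicate 2, 76.0% and 72.0%, and their median signals, 1.12 and 1.09, were also below those of all genes. The strongest by the mean of both libraries were Plekhb1 (5.54 in replicate 1 and 3.49 in replicate 2), Sox8, a relative of Sox10 (4.01 and 3.52), and Anln (3.86 and 1.76). Promoter signals in the longer lists were also set against the median of those of the 9 genes with a promoter peak there, 8 in replicate 1 and 7 in replicate 2. The genes nearest to it over 2 libraries were Pllp (distance 0.17 on the log2 scale), Mal (0.27) and Tcf7l2 (0.40). Pllp and Mal encode tetraspan proteins of myelin, and Tcf7l2 a transcription factor of differentiating oligodendrocytes.

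Markers of other cells were counted in the same way, beside a promoter peak in 60.7% of all genes in replicate 1 and 61.2% in replicate 2. Neuronal genes had a promoter peak in 7 of 8 cases in both libraries, with medians of 3.54 and 3.10. Camk2a was the strongest of them by the mean of both libraries, at 4.28 and 4.29. Astrocyte genes had one in 4 and 5 of 8, with medians of 2.36 and 2.18. Microglial genes had one in 3 and 3 of 8 (medians 1.85 and 1.31), and endothelial genes in 4 and 2 of 8 (1.41 and 1.99). Genes of oligodendrocyte precursors had one in 5 and 4 of 8, with medians of 1.23 and 1.05. Pdgfra was the strongest by the mean of both libraries, at 3.25 and 1.30. In replicate 2 Olig1 was higher, at 1.73. The medians of the astrocyte, microglial, endothelial and precursor lists were thus also below those over all genes, 3.82 and 2.88. Genes of Schwann cells, the myelinating cells of peripheral nerve, had one in 4 and 4 of 6, with a median signal of 3.51 and 3.44. These medians are close to the neuronal ones, so such counts cannot check the tissue label. A peak near a marker's start can also belong to a neighbouring gene, which was not separated here.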

How the data were processed

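DNase-seq of 2 libraries of 1 group was analysed. The authors called peaks and footprints in each library and deposited, per library, 2 peak lists with a signal per peak, a footprint list (score 0.01 in every row) and a list of bases with q-values; all are on mm10, per the labels. For the aligner, the callers, their thresholds and the scaling of the deposited signal, nothing is stated in the sources used here. The hybrid's reads were set against a C57BL/6J-based build, and allele-specific values were not analysed. No peak ran past a GRCm38.p6 chromosome end.

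Peaks were joined to GENCODE M21 basic starts and gene bodies. Promoter peaks were those at most 1 kb from a start of a protein-coding gene, a distal peak over 1 kb from every start, and a window was the gene body with 10 kb on each side. Peaks were shared when 1 bp overlapped. The shorter list of each library was used unless stated. With 1 group there was no test, and counts stand beside those over all protein-coding genes. Means of single promoter signals carry the SD of the 2 libraries. Every member was named, with its strongest promoter and shared distal peak; of 25 other oligodendrocyte genes, the 3 strongest, those with no peak and the 3 most like the members; of other cell types, the strongest. Some genes that this rule names are not reported here. The members and lists were chosen with earlier results of these data known. Alternatives were the longer list, equal numbers of peaks, other promoter distances (500 bp, 2 kb) and windows (50 kb, gene body), a stricter overlap and each library alone. The overlap and distance code was tested on simulated data. Python 3.11.15, numpy 2.4.6, pandas 2.3.3 and matplotlib 3.10.9 were used.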

Additional observations from a re-analysis of the deposited data

How the results depend on the processing

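The number of the 9 genes with a promoter peak and their median promoter signal were 5 to 7.5 genes and 0.706 to 0.949 under the other lists and distances, as means of both libraries; with equal numbers of peaks replicate 2 alone held 3 genes. With 1 library left out the count was 7 in each, the median signal 0.574 to 0.937, the distal density 6.59 to 7.62 per 100 kb and the median footprints per window 17 to 19. The distal density, 7.11 as the mean of both libraries, was 11.5 with the longer lists, 6.37 in gene bodies alone and 5.97 with only peaks nearest to the gene itself. The median number of footprints per window, 18, was 53 with 50 kb on each side and 5.5 in gene bodies alone. Shared distal loci with a CTCF match numbered 7 with the full consensus and 16 with 1 letter different. Single promoter signals rest on 1 library where the other is left out. That of Myrf was 0.928 without replicate 1 and 2.88 without replicate 2 (mean 1.91, SD 1.38). Without replicate 1, that of Mbp was 0.961 (mean 1.55, SD 0.827, over different starts) and that of Cldn11 0.467 (mean 0.702, SD 0.332). No paired analysis was possible because the design holds 1 group. Without read totals, a missing peak at Sox10 or Opalin shows only that none was called at this depth.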

Other observations

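With 50 kb on each side, stronger distal peaks came into reach for some of the 9 genes. For Mobp, a peak with its nearer edge 38496 bp from a Mobp start, and nearest to that start among protein-coding genes, had 7.98 in replicate 1, and the strongest such peak of replicate 2 had 3.89. For Myrf, peaks 17753 bp from a Myrf start had 4.71 in replicate 1 and 3.16 in replicate 2. Sox10 did not gain in this way. Its wider window held 5 distal peaks in replicate 1 and 6 in replicate 2, but 1 in each was nearest to Sox10. These were different peaks: 1.02 at 27901 bp from the start in replicate 1 and 0.541 at 11534 bp in replicate 2. The latter already lay in the window with 10 kb on each side.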
